A study of Sus scrofa with 48 samples.

Results

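Transcripts of the circadian clock were measured in the longissimus muscle, the large muscle along the back, of 48 growing pigs. The list held 10 genes, namely ARNTL, CLOCK, PER1, PER2, PER3, CRY1, CRY2, NR1D1, DBP and NFIL3. A probe was taken for a gene when the array annotation gave that symbol as the gene name or in brackets in the description, and it was kept when its signal stood well above the local background on at least 12 of the 48 arrays. No probe carried CLOCK or DBP under this rule, so these genes were not analysed here. The other 8 genes were represented by 14 probes, and all 14 passed the filter, out of 42125 probes kept among 60305. Of the 14 probes, 13 were well above background on all 48 arrays, and the exception was the dimmer NR1D1 probe with 35 arrays.

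The pigs came from purebred Large White lines bred in opposite directions for residual feed intake (RFI), which is the feed eaten beyond that predicted from production and maintenance needs. The low RFI line (RFIneg) is the more efficient line and the high RFI line (RFIpl) the less efficient line. Pigs of each line were fed ad libitum either the HF diet, high in fat and in fiber, or the LF diet, low in both, which gave 4 groups of 12 pigs with 1 single-colour array per pig. Selection and diet therefore stand for the line as a whole and for a diet that differed in fat and fiber together, and their parts cannot be told apart. The labels used here give neither age nor the time of day at which muscle was sampled, and a time of sampling that differed between groups cannot be told apart from line or diet.

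The circadian clock is a loop of transcription factors found in nearly every cell. ARNTL (also called BMAL1) pairs with CLOCK and switches on the Period (PER) and Cryptochrome (CRY) genes, whose proteins return to the nucleus and repress ARNTL and CLOCK. A second loop runs through NR1D1 (REV-ERB alpha), a nuclear receptor that represses ARNTL and NFIL3, and an output arm runs through the D-box element, which DBP and its relatives activate and NFIL3 (E4BP4) represses. In skeletal muscle the clock is known for rhythms of glucose and lipid metabolism, and a single sample per animal catches each gene at 1 point of its daily course.

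The probes were 60 bases long. The following 4 are shown. NFIL3 was the only clock gene that differed between the lines, and the probe shown is the dimmer of its 2. Its values are given below as those of the other NFIL3 probe. NFIL3 levels and correlations come from the brightest NFIL3 probe, O10462, whose sequence is not shown. Both NR1D1 probes are shown because they gave different readings, and the brightest ARNTL probe because ARNTL followed NFIL3 from pig to pig. Each is written 5′ to 3′ as the array files give it.
NFIL3 probe A_72_P487453: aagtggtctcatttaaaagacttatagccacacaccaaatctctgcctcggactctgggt
NR1D1 probe O11226: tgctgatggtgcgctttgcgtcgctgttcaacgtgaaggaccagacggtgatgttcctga
NR1D1 probe A_72_P186261: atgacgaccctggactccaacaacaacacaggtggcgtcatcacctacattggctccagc
ARNTL probe A_72_P481317: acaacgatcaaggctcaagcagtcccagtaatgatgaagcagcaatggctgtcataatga
The 2 NFIL3 probes shared no run longer than 5 bases on the same strand and neither did the 2 NR1D1 probes, so the probes of each gene read separate stretches. The brightest kept probe of a gene stood for the gene. Its level is given as the log2 signal with the mean of all tested probes on the same array set at 0, so levels compare pigs for 1 probe and do not rank genes.

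NFIL3, the repressor of the D-box arm, was the only clock gene whose level differed between the lines after adjustment. Its levels ran from -1.29 to 0.70 in low RFI pigs fed HF, with a median of -0.34. They ran from -0.69 to 1.97 with a median of 1.21 in high RFI pigs fed HF. In low RFI pigs fed LF they ran from -0.14 to 2.83 with a median of 0.70, and in high RFI pigs fed LF from 0.04 to 3.06 with a median of 1.02. The low RFI pigs on the HF diet were thus the low group, and the other 3 groups overlapped broadly. Of the 12 high RFI pigs on the HF diet, 11 lay above the mean of the low RFI pigs on that diet and 9 lay above its highest pig.

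Averaged over diets, NFIL3 stood higher in high than in low RFI pigs by 0.77 on the log2 scale (SE 0.23, 95% interval 0.31 to 1.22, 24 pigs per line, adjusted p = 0.0157 by limma with Benjamini-Hochberg adjustment over all tested probes), a fold of 1.70. The other NFIL3 probe gave 0.80 (SE 0.21, adjusted p = 0.00660). These were the 2 clock gene probes called of 14, where 16.4% of all tested probes were called in the same comparison and 6.57% of all tested probes were called as higher. On the HF diet the line difference was 1.25 (SE 0.32, adjusted p = 0.0163), a fold of 2.38, and 1.30 (SE 0.30, adjusted p = 0.00753) by the other probe, where 6.39% of all probes were called. On the LF diet it was 0.29 (95% interval -0.36 to 0.93, adjusted p = 0.713), where 2.47% of all probes were called and no clock gene probe was. The difference between these line effects was 0.97 (95% interval 0.05 to 1.88), with p = 0.0383 before adjustment and 0.999 after, so a diet-dependent line effect was not established. No probe of the array (0%) passed adjustment for that interaction, while 1875 (4.45%) had p under 0.05 before adjustment.

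The arrays lay on 6 slides, each with 2 pigs of every group. The line difference of NFIL3 was positive within each slide, from 0.34 to 1.46 for the brightest probe. It was 1.01 among the 24 arrays of the first scan day and 0.53 among the 24 of the second. Leaving out each of the 48 pigs in turn gave 0.68 to 0.86, with adjusted p from 0.00495 to 0.0258.

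**Figure D1:**
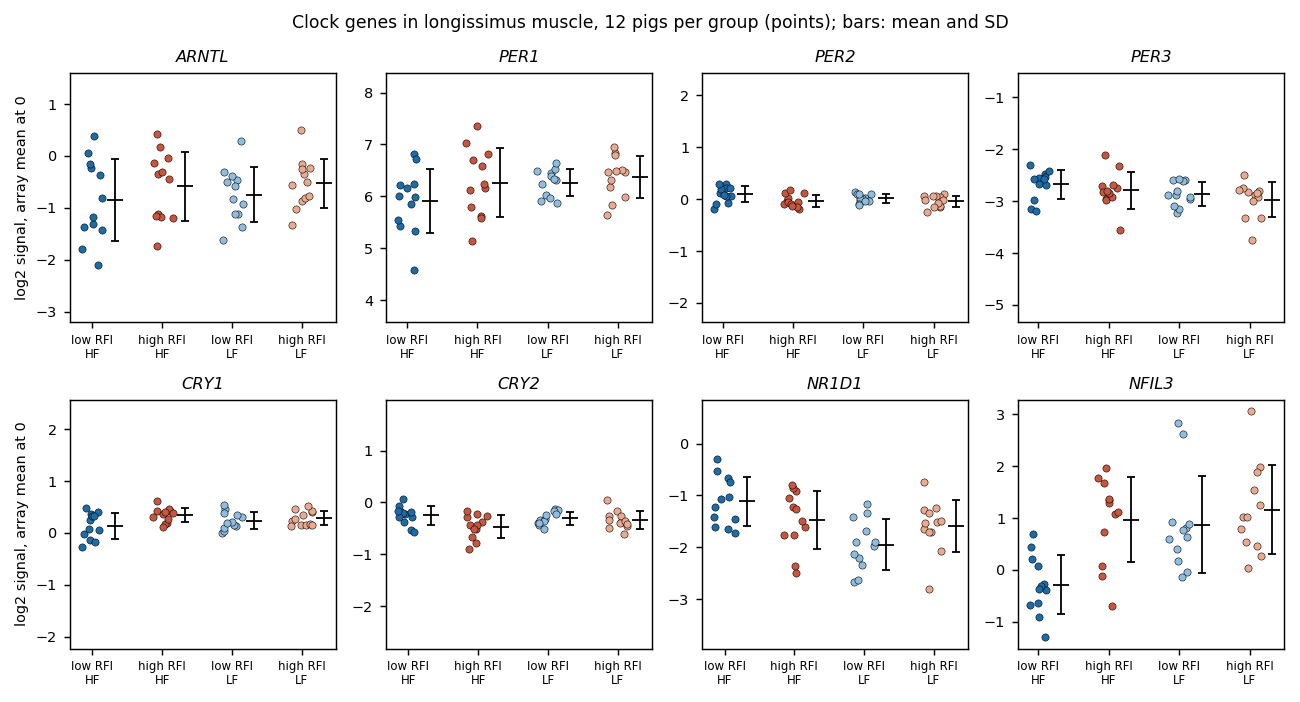
Log2 signal of the brightest kept probe of 8 clock genes in 48 pigs, with the mean of each array at 0; points are pigs, bars give mean and SD of 12 pigs per group, and every panel spans the same number of log2 units. The low RFI pigs on the HF diet sit lowest for NFIL3 (median -0.34) and highest for NR1D1 (median -1.14), while the probes shown for PER2, CRY1 and CRY2 vary little.

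The HF diet went with lower NFIL3 in the low RFI line, at -1.16 (SE 0.32, adjusted p = 0.0955), and all 12 low RFI pigs on HF lay below the mean of the low RFI pigs on LF. The other probe gave -1.16 (adjusted p = 0.0684). In the high RFI line the diet difference was -0.19 (95% interval -0.83 to 0.46), and over both lines it was -0.67 (SE 0.23, adjusted p = 0.160). None of these passed the threshold. No clock gene probe was called for diet, where 0.420% of all probes were called over both lines, 0.199% in the low RFI line and 0% in the high RFI line, where 2303 probes (5.47%) had p under 0.05 before adjustment. Before adjustment, 5 of the 14 probes had p under 0.05 for diet over both lines, beside 13.1% of all probes.

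NR1D1, the nuclear receptor that represses ARNTL and NFIL3, had its lowest group median in low RFI pigs fed LF by its brightest probe. By the second probe the lowest median was that of high RFI pigs fed HF, at -3.79, beside -3.62 in low RFI pigs fed LF. Levels of the brightest probe ran from -1.71 to -0.30 with a median of -1.14 in low RFI pigs on HF, and from -2.68 to -1.17 with a median of -1.94 in low RFI pigs on LF. In high RFI pigs they ran from -2.50 to -0.80 with a median of -1.37 on HF and from -2.81 to -0.74 with a median of -1.52 on LF. All 12 low RFI pigs on HF lay above the mean of the low RFI pigs on LF, and 6 lay above its highest pig, whereas the high RFI groups overlapped throughout.

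The diet difference of NR1D1 in the low RFI line was 0.83 (SE 0.20, 95% interval 0.43 to 1.24, adjusted p = 0.0565), a fold of 1.78 that fell just short of the threshold. It passed under 5 of the alternatives, with adjusted p of 0.0354 under 75th percentile scaling at the low end, and after leaving out any of 8 single pigs, 2 from each group, with adjusted p from 0.0386 to 0.0490. In the high RFI line it was 0.12 (95% interval -0.28 to 0.53). The interaction was -0.71 (95% interval -1.28 to -0.13, p = 0.0166 before adjustment and 0.999 after). The second NR1D1 probe gave a diet difference of 0.09 (SE 0.16) in the low RFI line, and its correlation with the brightest probe across pigs was 0.09 with group means taken off. The 2 probes of NR1D1 therefore did not report the same variation, and the diet difference was seen with 1 of them. For comparison, the 2 NFIL3 probes correlated at 0.98 and the 3 ARNTL probes at 0.71 to 0.98.

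**Figure D2:**
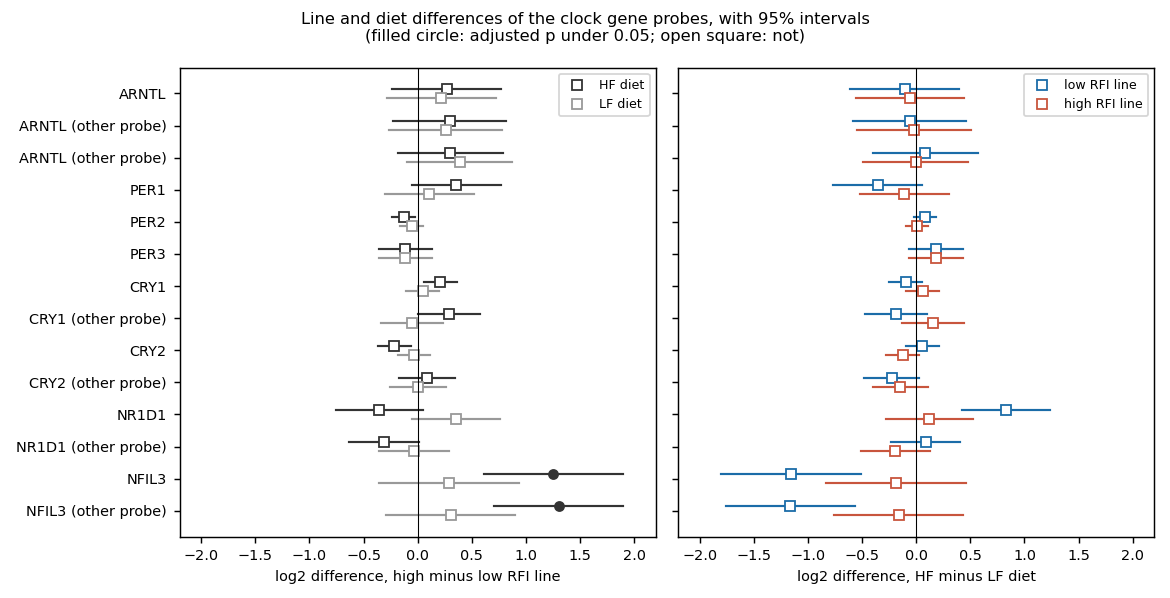
Log2 differences of the 14 clock gene probes with 95% intervals, between lines within each diet (left) and between diets within each line (right); filled circles passed an adjusted p of 0.05 over all probes and open squares did not. Only the NFIL3 probes on the HF diet are filled, at 1.25 and 1.30, and the NR1D1 probes stand apart from each other in the low RFI line, at 0.83 and 0.09.

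ARNTL, the activator, did not differ detectably between the groups, but it varied widely from pig to pig. Its levels ran from -2.10 to 0.39 in low RFI pigs on HF, from -1.74 to 0.42 in high RFI pigs on HF, from -1.62 to 0.29 in low RFI pigs on LF and from -1.33 to 0.49 in high RFI pigs on LF. All 4 groups overlapped nearly completely. The line difference was 0.24 (95% interval -0.11 to 0.60, adjusted p = 0.359) and the diet difference -0.08 (95% interval -0.44 to 0.27, adjusted p = 0.910). The other ARNTL probes gave line differences of 0.28 and 0.34.

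Among the repressors of the main loop, the Period genes PER1, PER2 and PER3 and the Cryptochromes CRY1 and CRY2, no difference passed adjustment. PER1, which responds to hormonal and other outside signals as well as to the clock, ran from 4.58 to 6.82 in low RFI pigs on HF and from 5.88 to 6.64 in low RFI pigs on LF. It ran from 5.14 to 7.36 and from 5.63 to 6.96 in the high RFI groups on HF and LF. The lowest pig of all was thus in the low RFI group on HF, and the groups overlapped. Its line difference was 0.23 (95% interval -0.06 to 0.52, adjusted p = 0.275) and its diet difference -0.23 (95% interval -0.52 to 0.06, adjusted p = 0.521).

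The other repressors did not pass adjustment between the lines, and PER2, CRY1 and CRY2 had p under 0.05 before it. For the line, 6 of the 14 clock gene probes had p under 0.05 before adjustment, beside 13071 of all 42125 tested probes. PER2 was at -0.09 (SE 0.04, p = 0.0158, adjusted p = 0.0768). CRY1 was at 0.13 (SE 0.05, p = 0.0217, adjusted p = 0.0942). CRY2 was at -0.13 (SE 0.05, p = 0.0210, adjusted p = 0.0923), but its second probe stood at 0.04 (SE 0.09). PER3 was at -0.11 (95% interval -0.29 to 0.06, adjusted p = 0.379). The CRY genes leaned in opposite directions, neither past the threshold. On the HF diet 5 of the 14 clock gene probes had p under 0.05 for the line before adjustment, beside 24.2% of all tested probes. For diet, PER3 stood at 0.18 (SE 0.09, p = 0.0409, adjusted p = 0.354).

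The clock genes differed in how much they varied among pigs of the same group. The SD with group means taken off was 0.81 for NFIL3, a value that 3.39% of all tested probes reached, and 0.63 for ARNTL, which 8.12% reached. PER1 and NR1D1 both stood at 0.51. PER3 was at 0.30, close to the median of all probes of 0.258, and CRY1 and CRY2 were at 0.18. The second probes of CRY1 and CRY2 stood at 0.36 and 0.32, above that median. PER2 was at 0.12, a value that 97.9% of probes reached. The group accounted for 34.8% of the variance of NFIL3 and 27.4% of that of NR1D1, against 4.39% for ARNTL. These figures describe 1 probe each and depend on how well that probe follows its transcript.

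Because the clock proteins act on one another, the levels of the 8 genes were then compared across the 48 pigs, with each group's mean taken off. Of 28 pairs, 4 passed adjustment for Pearson's r and 3 of them for Spearman's rho as well, by permutation tests over pigs. The strongest was ARNTL with NFIL3, where pigs high in one were high in the other. Pearson's r was 0.67 and rho 0.69, each with an adjusted permutation p of 0.00028, the smallest that 100000 permutations can give here. It was 0.57 to 0.90 within the 4 groups and 0.69 without the 2 pigs farthest from the ARNTL median. It was positive on 5 of 6 slides and -0.20 on the remaining slide of 8 pigs. With group means taken off, this is variation among pigs of the same line and diet. How often pairs of other genes would pass was not computed, so the 4 calls are not shown to be particular to the clock.

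ARNTL and PER3 ran opposite to each other (r = -0.47, rho = -0.43, adjusted permutation p = 0.00737 and 0.0230), and r was -0.42 without the 2 farthest pigs. Within groups r was -0.65 and -0.62 on the HF diet in low and high RFI pigs, and -0.07 and -0.38 on the LF diet. PER1 and CRY2, repressors that act together, rose and fell together (r = 0.47, rho = 0.52, adjusted permutation p = 0.00737 and 0.0028). Their r was 0.65 to 0.70 in 3 groups and 0.19 in high RFI pigs on HF, and 0.55 without the 2 farthest pigs. ARNTL and CRY1 passed by r alone (r = 0.39, adjusted permutation p = 0.0428; rho = 0.36, adjusted p = 0.0902). Both genes of a pair were read on the same array and slide and at the same, unstated hour of sampling. They were also read in the same mix of cells, whose part in these pairs was not tested.

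**Figure D3:**
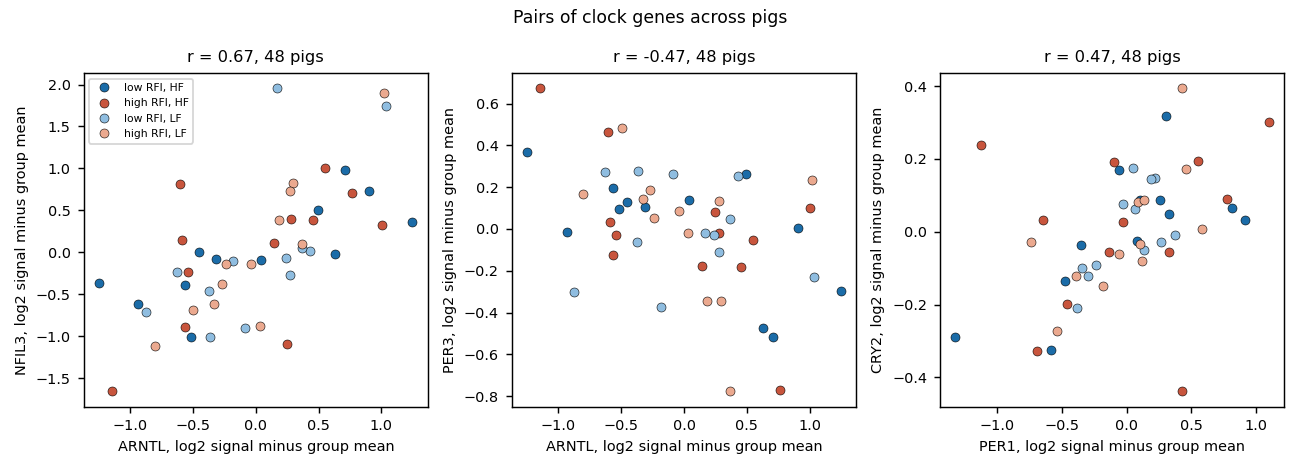
Each point is 1 of 48 pigs, coloured by group, with the log2 signal of 2 clock genes after its group mean was taken off. NFIL3 rises with ARNTL (r = 0.67), PER3 falls with it (r = -0.47), and CRY2 rises with PER1 (r = 0.47).

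NR1D1 and PER2 took no part in the pairs that passed, but with slide taken off as well NR1D1 was called with PER1 (r = -0.42, adjusted permutation p = 0.0215) and with CRY1 (r = -0.37, adjusted permutation p = 0.0412). The pair with PER1 also passed under normexp (r = -0.37, adjusted permutation p = 0.0395). NR1D1 correlated at 0.08 with ARNTL and at -0.11 with NFIL3, the genes it is known to repress. Its largest r among the clock genes was -0.33, with CRY1 (adjusted permutation p = 0.0863). These NR1D1 values rest on its brightest probe, whose r with the second NR1D1 probe was 0.09. With probes averaged within genes, NR1D1 had r of -0.28 with PER1 and -0.27 with CRY1 (adjusted permutation p = 0.242 and 0.265). In that setting its r was 0.18 with ARNTL and -0.003 with NFIL3. PER2 reached no r beyond 0.18 with any other clock gene, and it also had the smallest spread.

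The wider clock machinery was represented by a list of 23 further genes, of which 17 had a probe and 15 a kept probe, and 14 are described here. Between the lines, 1 of the 14 was called, lower in the high RFI line, where 16.4% of all probes were called. As lower, 4151 of all 42125 probes were called. The median difference of the 14 was -0.10 beside -0.03 over all probes. HLF, a relative of DBP that activates the D-box, stood at -0.37 (SE 0.07, adjusted p = 2.75e-04). Its difference was -0.35 on HF (adjusted p = 0.0271) and -0.39 on LF (adjusted p = 0.0233). On HF the call was lost under another background correction, normexp (-0.30, adjusted p = 0.0808), and with no filter on dim probes (-0.36, adjusted p = 0.0859). HLF and NFIL3 thus differed between the lines in opposite directions, but across pigs within groups their r was -0.22 (adjusted permutation p = 0.371). NPAS2, which can stand in for CLOCK, was at 0.58 (SE 0.23, adjusted p = 0.0727), and passed the threshold with slide as a block (0.58, SE 0.21, adjusted p = 0.0452). None of the 14 was called for diet, where 0.420% of all probes were called.

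Of 120 relations between the 8 clock genes and the 15 genes with a kept probe, 7 passed adjustment for r and 5 of the 7 also for rho. NR1D2, the close relative of NR1D1 and likewise a repressor of ARNTL, ran opposite to ARNTL (r = -0.49, rho = -0.48, adjusted permutation p = 0.0102 and 0.032) and to NFIL3 (r = -0.51, rho = -0.54, adjusted permutation p = 0.00920 and 0.0114). Both were negative in all 4 groups, from -0.36 to -0.72 and from -0.46 to -0.67. They were -0.46 and -0.49 without the 2 farthest pigs. CRY1 rose with SIRT1, a deacetylase that acts on clock proteins (r = 0.52, rho = 0.57), while CRY2 ran against it (r = -0.44, rho = -0.45). PER3 ran against NPAS2 (r = -0.53, rho = -0.45), on a probe with 40 arrays well above background. PER3 and CRY2 each followed USP2, a deubiquitinating enzyme, with r of 0.47 and 0.48, but rho did not pass (adjusted p = 0.255 and 0.100), and r for PER3 fell to 0.30 without the 2 farthest pigs. For PER3 with USP2, r was 0.84 and 0.74 in the high RFI groups on HF and LF but 0.00 and -0.14 in the low RFI groups, and for CRY2 with USP2 it was 0.72, 0.31, 0.60 and -0.01 in the same order. The difference between groups was not tested. How often relations with other genes would pass was not computed, so the 7 calls are not shown to be particular to the clock.

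**Figure D4:**
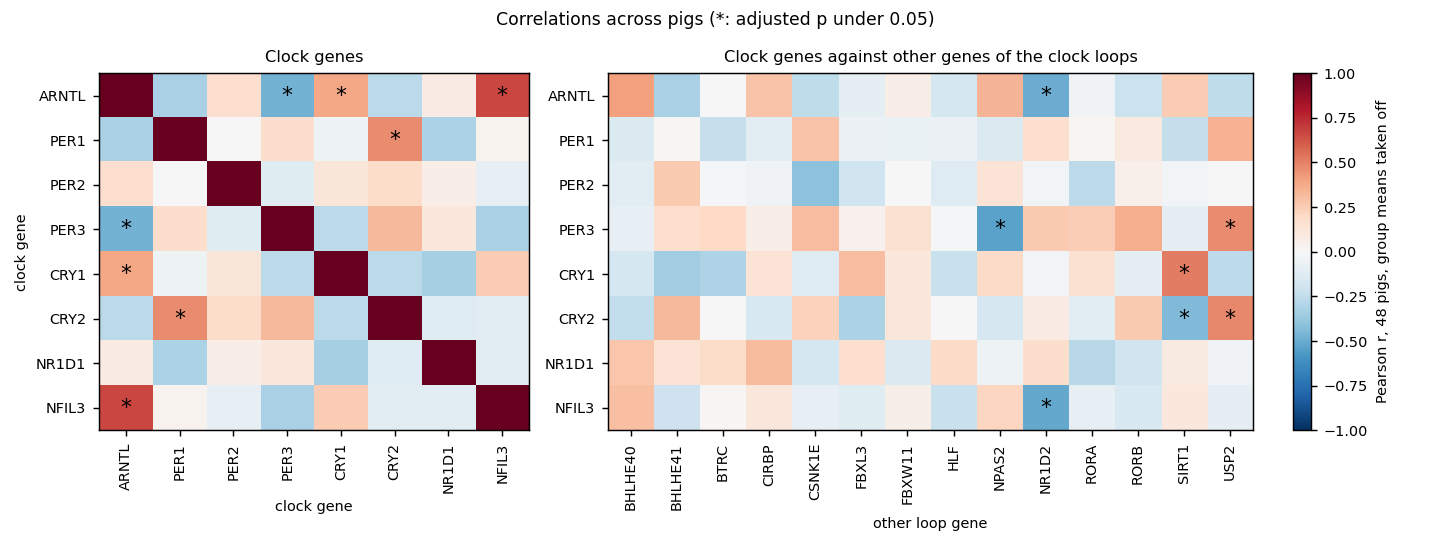
Pearson's r across 48 pigs, with group means taken off, among the 8 clock genes (left) and between them and 14 other genes of the clock loops (right); red is positive, blue negative, and a star marks an adjusted permutation p under 0.05. The ARNTL and NFIL3 rows share a strong positive r with each other (0.67) and a negative r with NR1D2 (-0.49 and -0.51).

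Among all 7505 gene symbols with probes well above background on every array, the closest to ARNTL across pigs were YPEL2 (r = 0.74), IGSF8 (r = 0.72) and CHSY1 (r = 0.69), and the most opposite was C5 (r = -0.68). The closest to NFIL3 were CHSY1 (r = 0.70), NCOA1 (r = 0.68) and YPEL2 (r = 0.68), and the most opposite AP3S2 (r = -0.59). CHSY1 and YPEL2 stood in both lists. YPEL2, IGSF8 and CHSY1 each had a higher r with ARNTL than NFIL3 had (0.67). Among the closest to PER1 were MCL1 (r = 0.66) and KLF13 (r = 0.64). For NR1D1 the closest was SEMA6D at 0.57, and for PER2, PER3, CRY1 and CRY2 they were ZNF414 (0.71), NAA25 (0.66), LEMD3 (0.70) and PEX6 (0.68). These ranks describe the same 48 pigs over 15108 probes and carry no test.

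Of 20 genes described as clock outputs in muscle, 19 were tested. Between the lines 2 of the 19 were called, both higher in the high RFI line, where 16.4% of all probes were called and 6.57% as higher. The median difference of the list was 0.01 beside -0.03 over all probes. These were MYOD1, a regulator of muscle gene expression, at 0.39 (SE 0.12, adjusted p = 0.0219) and KLF10 at 0.44 (SE 0.15, adjusted p = 0.0370). PDK4, a switch between glucose and fat oxidation, stood at 0.04 (adjusted p = 0.957). Of 7 genes listed as targets of the D-box factors 3 were tested, and none was called, with differences from -0.04 to 0.11.

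Several clock genes also respond to hormones and to acute stimuli, so lists of such genes were read in the same way, against the same 16.4% of all probes called for the line and 6.57% called as higher. Of the glucocorticoid target genes 3 of 16 were called, and of the immediate early genes 3 of 12. Of 16 tested glucocorticoid target genes, MT1A (1.50, adjusted p = 0.00735) and CDKN1A (0.52, adjusted p = 0.0109) stood higher in high RFI pigs and KLF9 (-0.26, adjusted p = 0.0233) was lower. FKBP5 stood at 0.37 (adjusted p = 0.183) by the brightest of its kept probes, and its other probes are not given here. By qPCR, over a larger set of pigs from several trials, the study reported higher FKBP5 in the high RFI line. Of 12 tested immediate early genes, MYC (0.53, adjusted p = 0.0201), KLF4 (0.54, adjusted p = 0.0378) and KLF6 (0.22, adjusted p = 0.0475) were higher and none was lower, with a median of 0.46 beside -0.03 over all probes. Across pigs within groups, NFIL3 had r of 0.48 with FOS, 0.45 with MYC, 0.44 with KLF4 and 0.43 with ATF3, while EGR3 stood at -0.11, EGR2 at 0.16, NR4A1 at 0.19 and EGR1 at 0.22. The median over the 12 genes was 0.37, against 0.15 for ARNTL. These correlations carry no test, and the part of these genes in the NFIL3 line difference was not tested.

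The muscle identity of the samples was plain from its markers: all 10 fibre markers were well above background on all 48 arrays. In whole muscle, fewer cells of a type and less RNA per cell cannot be told apart. Between the lines, where 16.4% of all probes were called, 2 of 10 fibre markers were lower in the high RFI line (TTN at -0.26 and MYH2 at -0.12), 3 of 6 immune cell markers were higher (CD14 at 0.30, CSF1R at 0.94 and LYZ at 1.50), and so were 2 of 6 fibroblast, 1 of 7 adipocyte, 1 of 5 endothelial and 1 of 3 red blood cell markers. On the HF diet, where 6.39% of all probes were called, 1 fibre marker was called lower, 1 immune and 2 fibroblast markers were called higher, and no adipocyte marker was called, although the median difference of the 7 adipocyte markers was 0.44. The log2 of the summed immune marker signal ran from 4.45 to 4.84 in low RFI pigs on HF, from 4.38 to 5.79 in high RFI pigs on HF, from 4.37 to 4.85 in low RFI pigs on LF and from 4.47 to 4.96 in high RFI pigs on LF. That of the fibroblast markers ran from 7.76 to 8.60, 8.10 to 8.67, 7.82 to 8.69 and 7.66 to 8.71 in the same order, and that of the fibre markers stayed between 12.68 and 13.22 in all groups. The adipocyte sum ran from 5.04 to 6.12 in low RFI pigs fed HF and from 5.12 to 6.81 in high RFI pigs fed HF, and from 4.82 to 6.64 and 5.21 to 6.70 in those fed LF. Across pigs within groups, NFIL3 had a median r of 0.21 with the immune markers, 0.03 with the fibroblast markers and -0.11 with the adipocyte markers. ARNTL had 0.30, 0.01 and -0.09 in the same order, and PER3 had -0.28, -0.28 and 0.13. All 7 adipocyte markers, 5 of 6 fibroblast and 4 of 6 immune markers were well above background on every array. The part of these cell types in the NFIL3 difference and in the pairs of clock genes was not tested.

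The median processed signal of an array ran from 52.8 to 107.9, and no measure of RNA quality was used here. Between 59.2% and 74.2% of the probes were well above background on an array, no spot was saturated, and the number of arrays limits the precision. The design text gives 1 array per pig and says nothing of kinship among the pigs.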

How the data were processed

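RNA from 48 pig longissimus muscles was hybridised to single-colour porcine 60-mer arrays. The deposited scanner intensities are the processed signals of Feature Extraction, already background-subtracted. The deposited table of log2 values held 34472 probes, and each value equalled log2 of the median signal minus the array median to within 4.99e-06. The median signal had no background subtracted. The submitters' processing notes name R 2.10.0, and the study's methods describe spot filtering, log2 transformation and mean centring.

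Here, log2 processed signals of probes well above background on 12 or more arrays were centred on each array's mean (42125 probes), without outlier spots. limma 3.58.1 in R 4.3.3 fitted 4 group means over all pigs, with 7 contrasts and Benjamini-Hochberg adjustment at 0.05. On simulated data for the line comparison (41957 probes) 79.0% of changes of 0.5 and 95.0% of changes of 1 were recovered, with 7.60% and 5.47% false calls. Correlations used 100000 two-sided permutations (Python 3.11.15, numpy 2.4.6), adjusted over 28 pairs and 120 relations.

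The members and gene lists were chosen with earlier results of these data known. Named genes were all members, listed genes that were called or best known, and the 3 closest and 1 most opposite symbols per member, of which 2 genes are not reported here. No genome of the files' build was used, and no coordinates are given.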

Additional observations from a re-analysis of the deposited data

How the results depend on the processing

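The NFIL3 line difference stayed past the threshold under all alternatives tried, over both diets and on the HF diet alone, as did that of HLF over both diets, while on HF HLF lost its call under normexp (-0.30) and with no filter on dim probes (-0.36), and NPAS2 for the line gained one with slide as a block (0.58). Among clock gene probes, 1 was called for diet in the low RFI line, where none was in the main analysis, under 75th percentile scaling, median centring, probes well above background on all arrays, scan day as a block and the authors' table; these gave NR1D1 differences of 0.86, 0.84, 0.84, 0.83 and 0.66. The called clock gene probes numbered 2 to 3 for the line, over both diets or on HF, 0 for diet and 0 to 1 for diet in the low RFI line when single pigs were left out. The direction of values near 0 turned: CRY1 for diet was 0.0052 under 75th percentile scaling, and NR1D1 for the line was -0.0056 under 75th percentile scaling, -0.0022 under median centring, -0.014 under quantile normalization, -0.019 under normexp, -0.021 in the authors' table and -0.087 with the mean of its probes. ARNTL with CRY1 lost its call with slide taken off (r = 0.35), with the mean of probes (0.21), under 75th percentile scaling (0.35) and quantile normalization (0.35). Called pairs rose from 4 to 7 under normexp and to 7 with slide taken off. With slide taken off, NR1D1 entered with PER1 (r = -0.42, and -0.37 under normexp) and with CRY1 (-0.37), and ARNTL with PER1 (-0.42). PER3 entered with CRY2 with slide taken off (0.37), under normexp (0.37) and in the authors' table (0.42). Under normexp PER3 also entered with CRY1 (-0.41). PER3 with NPAS2 lost its call under normexp (r = -0.31) and in the authors' table (-0.25), as did CRY1 with SIRT1 in the authors' table (0.38). ARNTL with NFIL3, ARNTL with PER3 and PER1 with CRY2 kept theirs throughout. Leaving out pigs and the alternatives for HLF, NPAS2, NR1D1 and NFIL3 within 1 line or diet and for the 120 relations were chosen after seeing the data.

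Over all probes, no filter on dim probes gave 3874 calls for the line (6919 in the main analysis), 802 on HF (2692), 424 on LF (1040), 0 for diet (177) and 14 for diet in the low RFI line (84). Slide as a block gave 4187 on HF, 359 for diet and 165 for diet in the low RFI line, and normexp gave 73 for diet. For diet in the low RFI line, 75th percentile scaling gave 174, probes well above background on all arrays 137, scan day as a block 148 and the authors' log2 values 143. The cause was not tested. No analysis paired by pig was possible, because each pig came from a single line, was fed a single diet and was read on a single array. How far above background a probe shines limits the dim NR1D1 and NPAS2 probes.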
